A study of Mus musculus with 6 samples.

Results

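Ptprc, Cd3e, Cd3g, Cd4, Cd8a, Cd79a, Cd79b, Ms4a1, and Nkg7 are marker genes of lymphocytes and, in the case of Ptprc, of all nucleated blood cells. They were followed in whole kidney RNA of WT and Selenbp1-KO mice to describe how much lymphocyte message the kidneys held and whether it differed between the genotypes. The genes were chosen by symbol from the gene names of the array, with every probe of each, which gave 9 genes of 37325 and 20 probes of 56605. All 20 probes passed the detection filter and were tested. The filter also passes a spot that differs from background by lying below it. Ptprc probes 6 and 7 and Cd4 probe 3, numbered from the brightest, were detected above background on no array. The groups were 3 WT and 3 Selenbp1-KO male mice of the strain C57BL/6J, 8 weeks old. All were fasted for 20 h, so the comparison holds only for fasted animals. WT mice were C57BL/6J from a supplier and the Selenbp1-KO mice came from an earlier study, so colony and genotype cannot be told apart. The methods name the strain for the WT mice only. The left kidney of each mouse was hybridized to 1 one-color Agilent array. Whether the kidneys were perfused free of blood is not given in the sources used here.

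Signals are given as log2 of the intensity minus log2 of the 75th percentile of that array, so that 0 is that percentile. They are listed with WT replicate 2 first, then WT 3 and 4, and for the knockout from replicate 1 to 3. That percentile was between 477 and 751 intensity units, and from 51.8% to 55.5% of the spots of an array were well above background. WT replicates 2 and 3 lie in slide side 1, while WT replicate 4 and the 3 Selenbp1-KO replicates lie in slide side 2. Slide side is inferred here from a position number in the name of each scan, and the sample labels used here do not state it. Selenbp1, the targeted gene, was between 7.02 and 7.07 in WT and between 3.98 and 4.13 in Selenbp1-KO and differed by −2.96 (standard error 0.098, adjusted p = 0.00210 from limma) and matched the label of each array, and all 9 kidney epithelium markers examined were well above background on the 6 arrays. In whole-tissue RNA, fewer cells of a type and less RNA per cell cannot be told apart.

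A kidney always contains blood and resident leukocytes among its epithelium. Ptprc encodes CD45, a membrane tyrosine phosphatase that sets the threshold of antigen receptor signaling. Cd3e and Cd3g are chains of the complex that carries the T cell receptor signal into the cell, and Cd4 and Cd8a are the coreceptors that bind the MHC molecules presenting antigen to helper and cytotoxic T cells. Cd79a and Cd79b form the signaling pair of the B cell receptor, Ms4a1 encodes the B cell surface protein CD20, and Nkg7 encodes a granule membrane protein of natural killer and cytotoxic T cells.

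Only some probes of each gene were well above background, so the sequences that the results turn on are shown first. They are the probe sequences of the deposited arrays, written 5′ to 3′, with positions on mm9 and probes of a gene numbered from the brightest. Of these 5 probes, all well above background on the 6 arrays, 30 bases are given. Capitals in Cd3e probe 1 and Cd4 probe 1 mark AATAAA, the usual polyadenylation signal, which 3 of the 20 probes hold, beside 9.8% of all probes of the array, counted on the printed strand only.
Cd3e probe 1, last 30 bases: taatgcaaaaggcAATAAAgtgtattggct
Cd3e probe 2, last 30 bases: atagctaagccctttcctacagctttctgt
Cd4 probe 1, last 30 bases: acagaaaAATAAAggctataAATAAAatgc
Ptprc probe 1, first 30 bases: GGTGCCCTCTTCTGGcgatcaagttacatg
Ptprc probe 2, last 30 bases: tttcctatgcttaagaccatctttgacttg

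Cd3e probes 1 and 2 lie on chromosome 9 at 44806828 to 44806887 and at 44807254 to 44807313, both on the minus strand, and start at bases 1374 and 948 of the same transcript, NM_007648. Cd4 probe 1 lies on chromosome 6 at 124814711 to 124814770, on the minus strand, and starts at base 3035 of NM_013488. Ptprc probe 2 lies on chromosome 1 at 139960089 to 139960148, on the minus strand, and starts at base 4536 of NM_011210. Ptprc probe 1 lies at 140020575 to 140020634 of the same chromosome and strand and belongs to the Ensembl transcript ENSMUST00000182138, with no RefSeq accession in the files. The capitals in Ptprc probe 1 mark a word of 15 bases that occurs in 4 promoters of other genes in the RefSeq promoter table (GRCm38.p6). With any of its 15-base words, on either strand, this probe matched 7 of 32851 promoters, which is more than 95.9% of all array probes did. Cd4 probe 1 matched 14 promoters, more than 98.0% of the array probes, while 35.8% of the array probes matched none. Cd3e probe 1 matched no promoter. Such a match is a description of the letters and was not tested as a source of signal.

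Dim probes of the same genes are shown whole for comparison. None of these 4 was well above background on any array.
Ptprc probe 4: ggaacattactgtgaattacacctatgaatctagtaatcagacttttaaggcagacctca
Cd4 probe 2: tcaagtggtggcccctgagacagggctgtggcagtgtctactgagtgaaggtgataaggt
Cd8a probe 2: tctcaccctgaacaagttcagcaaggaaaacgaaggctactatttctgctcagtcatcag
Cd79a probe 1: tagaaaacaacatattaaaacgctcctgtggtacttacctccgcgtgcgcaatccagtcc

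Ptprc probe 4 starts at base 342 of NM_011210 and Cd4 probe 2 at base 1242 of NM_013488, the transcripts that Ptprc probe 2 and Cd4 probe 1 also read. They lie on chromosome 1 at 140010285 to 140010344 and on chromosome 6 at 124817706 to 124817765. Cd8a probe 2 lies on chromosome 6 at 71323885 to 71323944 and starts at base 464 of NM_009857. Cd79a was read by 1 probe on chromosome 7, whose 60 bases span 25684357 to 25684614, so that it crosses an intron. Exon and untranslated region were not assigned for the other probes.

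Of the 20 probes, 7 were well above background on all 6 arrays, and 10 were on none. The 7 belong to 5 genes, namely 2 to Ptprc, 2 to Cd3e, and 1 each to Cd4, Cd79b, and Nkg7. Cd3g, Cd8a, and Cd79a had no probe well above background on any array, and each of the 2 Ms4a1 probes was so on 1 WT array only. An unadjusted p under 0.05 was reached by 2 of the 20 probes, both higher in Selenbp1-KO, beside 7.98% of all 56097 probes tested and, for higher in Selenbp1-KO alone, 6.47%. These were Cd3e probe 1 and the dim Ptprc probe 5. The groups did not overlap in the same 2 probes, beside 13.3% of all probes, or 9.22% with every knockout array above every WT array. No adjusted p of a member was under 0.05, and the lowest was 0.279.

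**Figure D1:**
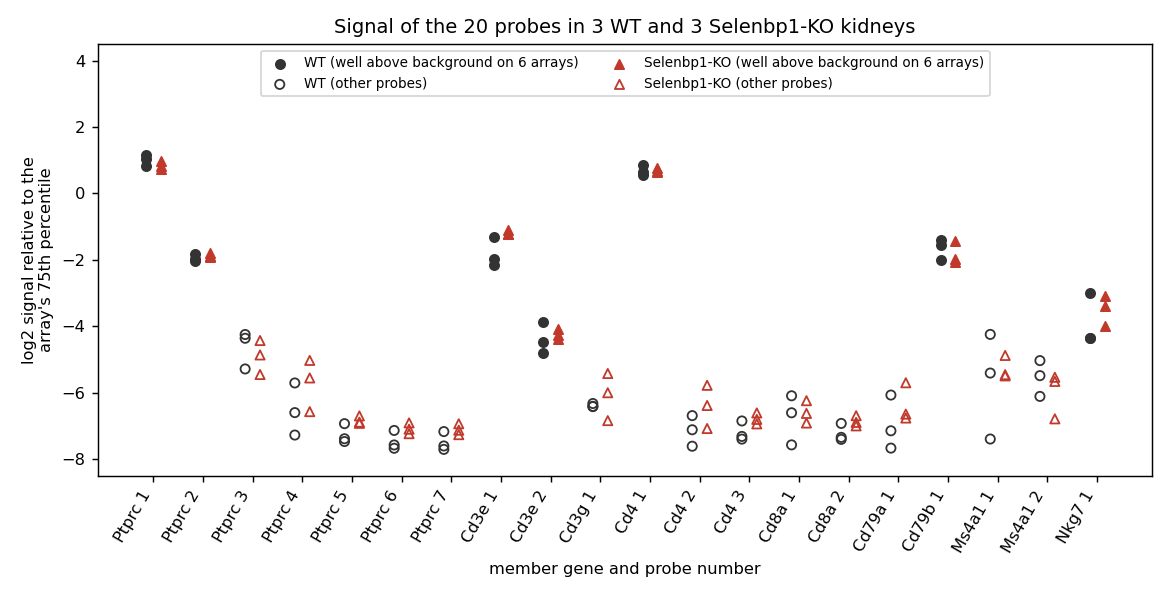
Log2 signal relative to the 75th percentile of the array (vertical axis) of the 20 probes (horizontal axis) in 3 WT (circles) and 3 Selenbp1-KO (triangles) kidneys, 1 point per array. Filled points mark the 7 probes well above background on all 6 arrays, and of these only Cd3e probe 1 has every Selenbp1-KO array above every WT array.

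Ptprc, the pan-leukocyte gene, did not pass the test in either probe that was well above background on every array. Probe 1 gave 1.05, 0.83, and 1.17 in WT and 0.75, 0.98, and 0.83 in Selenbp1-KO. The groups overlapped, and the mean was 1.01 ± 0.17 in WT and 0.85 ± 0.12 in Selenbp1-KO (SD, n = 3 each). Differences are given as KO minus WT, and that of this probe was −0.16 (standard error 0.13, 95% interval −0.48 to 0.16, adjusted p = 0.564 from limma). On intensities with no scaling between arrays it was −0.43 and passed the unadjusted threshold as lower in Selenbp1-KO (adjusted p = 0.387 from limma).

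Ptprc probe 2, which reads the RefSeq transcript, varied less. It gave −1.99, −2.05, and −1.83 in WT and −1.87, −1.81, and −1.90 in Selenbp1-KO. The groups overlapped, with a difference of 0.095 (standard error 0.11, 95% interval −0.17 to 0.36, adjusted p = 0.692 from limma). The 2 brightest Ptprc probes thus had differences of opposite sign, both within the spread between replicates.

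The other 5 Ptprc probes were dim. Probe 3 was well above background on 2 WT arrays and on no Selenbp1-KO array, with −4.36, −5.29, and −4.25 in WT and −5.46, −4.43, and −4.87 in Selenbp1-KO. Its groups overlapped, with a difference of −0.28 (standard error 0.37, 95% interval −1.19 to 0.62, adjusted p = 0.738 from limma). Not every WT value was well above background, so no minimum fold can be given for this probe. Probe 5 gave −7.39, −7.47, and −6.94 in WT and −6.93, −6.70, and −6.89 in Selenbp1-KO, a difference of 0.43 (standard error 0.17, adjusted p = 0.279 from limma). It was well above background on no array, and 5 of its 6 values were surrogate values that the scanner software enters for a spot not above background. This call therefore carries no level and no fold. Probes 6 and 7 had surrogate values on all 6 arrays, with a difference of 0.38 in each.

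Cd3e, the T cell receptor chain, had the only call among the probes that were well above background on all 6 arrays. Cd3e probe 1 gave −2.15, −1.99, and −1.31 in WT and −1.22, −1.11, and −1.21 in Selenbp1-KO. Every Selenbp1-KO array lay above every WT array, but WT replicate 4 lay nearer to the Selenbp1-KO arrays than to the other WT arrays. In intensity units before scaling, the same arrays gave 160, 189, and 210 in WT and 243, 221, and 252 in Selenbp1-KO. The mean was −1.82 ± 0.45 in WT and −1.18 ± 0.061 in Selenbp1-KO (SD, n = 3 each). The difference was 0.64 (standard error 0.23, 95% interval 0.076 to 1.20, adjusted p = 0.279 from limma), or 1.56-fold. Within slide side 2, which holds only WT replicate 4 of the WT arrays, the Selenbp1-KO mean was 0.13 above it, and the call was lost when the slide side was a block (adjusted p = 0.917 from limma). The difference without WT replicate 4 was 0.89 (adjusted p = 0.0490 from limma). Without any 1 of the other 5 arrays the unadjusted threshold was not passed, with differences from 0.47 to 0.66 and adjusted p from 0.291 to 0.543 (limma).

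Cd3e probe 2, on the same transcript 5′ of probe 1, did not pass the test. It gave −4.81, −4.48, and −3.88 in WT and −4.08, −4.39, and −4.27 in Selenbp1-KO. WT replicate 4 was the highest of the 6 arrays, and the groups overlapped. The difference was 0.14 (standard error 0.25, 95% interval −0.47 to 0.75, adjusted p = 0.814 from limma), and it was −0.37 within slide side 2. Taken as the mean of its probes, Cd3e differed by 0.39 (adjusted p = 0.370 from limma).

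Cd3g, another chain of the same complex, was well above background on no array. Its probe (NM_009850, chromosome 9, 44777868 to 44777927) gave −6.41, −6.33, and −6.42 in WT and −6.84, −5.43, and −6.00 in Selenbp1-KO. The groups overlapped, and no level or fold can be read from it (adjusted p = 0.704 from limma).

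**Figure D2:**
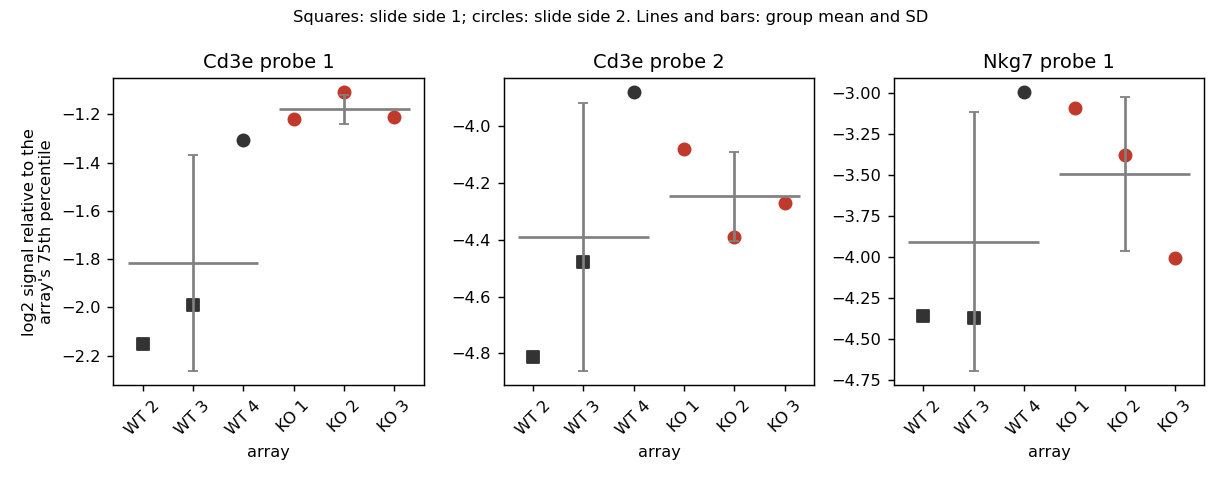
Log2 signal relative to the 75th percentile of the array (vertical axes) of Cd3e probes 1 and 2 and of Nkg7 on each array (horizontal axes), with squares for slide side 1, circles for slide side 2, black for WT, red for Selenbp1-KO, and lines and bars for group mean and SD (n = 3). In all 3 panels WT replicate 4 is the highest WT array, and it is within 0.13 of the Selenbp1-KO mean for Cd3e probe 1.

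Cd4, the helper T cell coreceptor, was well above background on the 6 arrays in 1 probe, and that probe showed no difference beyond the spread. Probe 1 gave 0.55, 0.87, and 0.64 in WT and 0.67, 0.76, and 0.64 in Selenbp1-KO. The Selenbp1-KO arrays lay within the range of the WT arrays. The difference was 0.0039 (standard error 0.12, 95% interval −0.29 to 0.30, adjusted p = 0.992 from limma), so a change larger than 0.30 in either direction lies outside the interval. Cd4 probes 2 and 3 were well above background on no array. Probe 2 had surrogate values on 3 arrays and a difference of 0.73, and probe 3, which has the accession X04836, had them on all 6 and a difference of 0.40, and neither passed the test. Taken as the mean of its 3 probes, 2 of them at background, Cd4 differed by 0.38 and passed the unadjusted threshold (adjusted p = 0.261 from limma).

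Cd8a, the cytotoxic T cell coreceptor, was at background in both probes. Probe 1 (NM_001081110, chromosome 6, 71328911 to 71328970) gave −7.58, −6.61, and −6.10 in WT and −6.63, −6.92, and −6.24 in Selenbp1-KO. The groups overlapped, and 2 of these 6 values were surrogates. Probe 2 was at the surrogate value on all 6 arrays. The ratio of Cd4 to Cd8a therefore cannot be formed from these arrays.

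Among the B cell genes, only Cd79b was measured on every array, and it did not pass the test. Its probe (NM_008339, chromosome 11, 106172780 to 106172839) gave −1.41, −2.02, and −1.56 in WT and −2.08, −1.43, and −1.97 in Selenbp1-KO. The lowest and the highest group members interleave, and the difference was −0.16 (standard error 0.24, 95% interval −0.75 to 0.42, adjusted p = 0.773 from limma). Cd79a, its partner in the receptor, gave −6.07, −7.67, and −7.15 in WT and −6.65, −6.77, and −5.70 in Selenbp1-KO. None of these was well above background.

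Ms4a1 was read by 2 probes on chromosome 19, each well above background on 1 WT array. Probe 1 (11324334 to 11324393) gave −7.40, −5.41, and −4.25 in WT and −5.46, −4.88, and −5.50 in Selenbp1-KO. Probe 2 (11325409 to 11325468) gave −5.04, −5.49, and −6.12 in WT and −5.66, −6.79, and −5.54 in Selenbp1-KO. The WT array with the highest value was replicate 4 in probe 1 and replicate 2 in probe 2, so the probes of this gene did not order the WT arrays alike. The differences of 0.41 and −0.45 had opposite signs, and neither passed the test (adjusted p = 0.831 and 0.622 from limma).

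Nkg7, the granule gene of natural killer and cytotoxic T cells, was dim but well above background on all 6 arrays. Its probe (NM_024253, chromosome 7, 50693482 to 50693541) gave −4.36, −4.37, and −3.00 in WT and −3.09, −3.38, and −4.01 in Selenbp1-KO. WT replicate 4 was the highest of the 6 arrays, and the other 2 WT arrays were the lowest. The difference was 0.41 (standard error 0.44, 95% interval −0.66 to 1.49, adjusted p = 0.671 from limma). It was 0.87 and passed the unadjusted threshold without WT replicate 4 (adjusted p = 0.108 from limma), and it was above 0 without any 1 array. Within slide side 2, where WT replicates 2 and 3 drop out of the contrast, it was −0.50.

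**Figure D3:**
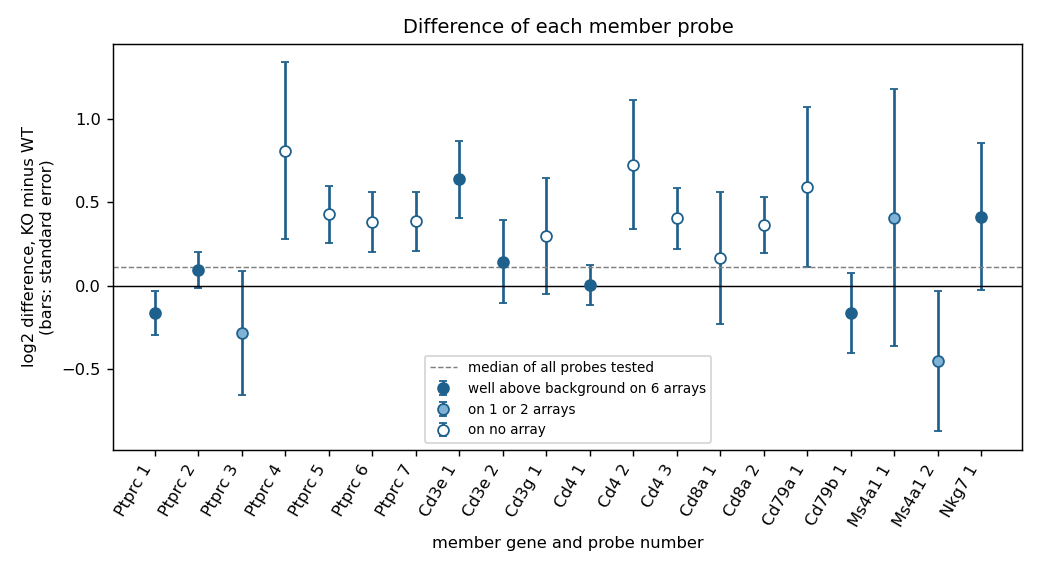
Log2 difference, KO minus WT (vertical axis), with its standard error for the 20 probes (horizontal axis). The 7 filled points are probes well above background on all 6 arrays, which run from −0.16 to 0.64, and the dashed line is the median of all probes tested, 0.11.

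With the brightest probe of each gene, 7 of the 9 members had a difference above 0 and 2 below, with a median of 0.30 beside 0.13 over all 37028 genes tested. Here Ptprc is represented by probe 1, which has no RefSeq accession and a difference of −0.16, against 0.095 in probe 2. Cd4 is represented by probe 1, while its probes 2 and 3 were at background. Whether these bright probes read Ptprc and Cd4 alone was not tested. They also represent these genes in the mean profile and the summed level below. The medians of the members and of all genes moved with the scaling and with the slide side. With quantile normalization the medians were 0.17 for the members and 0.0037 for all genes, and with no scaling they were 0.026 and −0.15. When the slide side was a block, they were −0.27 and 0.057. With the filter on dim probes, which keeps a probe well above background on all arrays of a genotype, they were 0.0039 and 0.016.

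The 5 members well above background differed in their order of the arrays, with Cd4 highest in WT replicate 3, Cd79b in WT replicate 2, and Nkg7 in WT replicate 4. Between pairs of them the root mean square distance of the centered signals ran from 0.18 for Ptprc and Cd79b to 0.62 for Cd79b and Nkg7, so what follows describes their mean only. The mean of Ptprc, Cd3e, Cd4, Cd79b, and Nkg7, centered over the 6 arrays, was −0.20, −0.27, and 0.25 in WT and 0.070, 0.23, and −0.078 in Selenbp1-KO. The scaling term itself, the 75th percentile on the log2 scale with its sign turned and centered in the same way, was −0.26, −0.34, and 0.19 in WT and 0.069, 0.31, and 0.024 in Selenbp1-KO. Before scaling, the mean of the 5 genes was 0.061, 0.066, and 0.060 in WT and 0.0012, −0.086, and −0.10 in Selenbp1-KO. By definition the scaled mean is the unscaled mean plus this scaling term. The unscaled mean varied less than the term, so the scaled mean was low where the percentile was high. This follows from the arithmetic and is not a separate result. The scaled mean overlapped between the groups, with a difference of 0.15. The unscaled mean ran from −0.10 to 0.066, and there every Selenbp1-KO array lay below every WT array, opposite in direction to the scaled difference. With no scaling the median difference over all genes was also below 0, at −0.15. A lower unscaled signal in Selenbp1-KO was therefore not particular to these 5 genes. The part of the scaling in the differences was not tested beyond these alternatives.

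**Figure D4:**
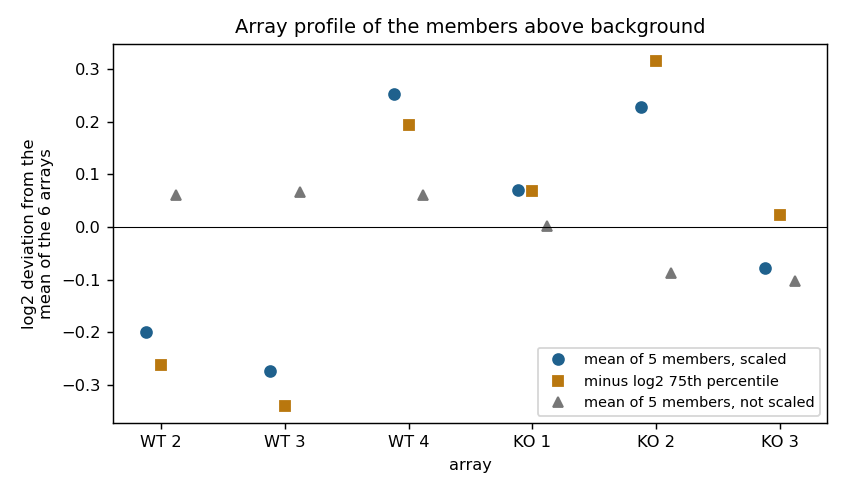
Log2 deviation from the mean of the 6 arrays (vertical axis) for each array (horizontal axis), with circles for the mean of the 5 members well above background after scaling, squares for minus the log2 75th percentile, and triangles for the same mean before scaling. Each circle is by definition the sum of the square and the triangle of its array. The circles lie near the squares on every array, and the circle of WT replicate 4 lies with that of Selenbp1-KO replicate 2 at 0.25 and 0.23.

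Among the 5 genes whose centered signal lay nearest to this mean profile, of 18359 genes well above background on all 6 arrays, were the mitochondrial ND2 at a root mean square distance of 0.027, Gpx3, the glutathione peroxidase that the kidney secretes into plasma, at 0.028, Fth1, the ferritin heavy chain, at 0.029, and the mitochondrial COX2 at 0.035. The median distance of the candidates was 0.22. The likeness is over 6 arrays that share their scaling.

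Other genes of the same cells were counted from lists of known markers. Of 101 genes in lists of T cell, B cell, cytotoxic, and pan-leukocyte genes, 97 were measured, and 15 passed an unadjusted p under 0.05, 14 of them higher in Selenbp1-KO and 1 lower. This is 15.5% of those measured, beside 8% of all genes tested, of which 6.87% were higher and 1.13% lower. The median difference of the 97 genes was 0.24, with 75 above 0 and 22 below. Of the 97, 52 were well above background on all 6 arrays and 33 on none, so this median rests in part on background signals. With the filter on dim probes 13 genes passed, all higher. Beside this, 9.96% of all probes kept passed, and 64.7% of those calls were higher. The groups did not overlap in 19 of the 97 genes, beside 14.1% of all genes. No adjusted p of these 15 was under 0.05. With no scaling, 10 of the genes passed, 2 of them higher. Beside this, 9.01% of all probes passed with no scaling, and 12.8% of those calls were higher. The direction of the calls in these lists thus moved with the scaling as it did over all probes. These shares stand beside the list counts below too. With the slide side as a block, only WT replicate 4 stands against the knockout. With it the medians of the T cell, B cell, cytotoxic, and pan-leukocyte lists were 0.016, 0.097, −0.16, and 0.087, beside 0.057 over all genes.

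In the T cell list, 10 of 28 measured genes were well above background on no array. With the filter on dim probes 4 of 16 passed, all higher (median 0.29). Without that filter, 4 of the 28 passed as higher and none as lower, with a median difference of 0.29. When the slide side was a block 3 passed, 1 of them higher (median 0.016), and the same counts held with no scaling (median 0.019). Skap1, an adaptor protein of T cell receptor signaling, gave −2.21, −2.07, and −1.75 in WT and −1.47, −1.64, and −1.70 in Selenbp1-KO, without overlap (difference 0.41, standard error 0.15, adjusted p = 0.279 from limma). Cd247, the zeta chain of the CD3 complex and among the brightest of the list, gave 1.99, 1.92, and 2.38 in WT and 2.52, 2.16, and 2.56 in Selenbp1-KO, with overlap and without passing the test (difference 0.32, adjusted p = 0.365 from limma). Skap1 did not pass with the slide block or with no scaling.

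In the B cell list, 9 of 21 measured genes were well above background on no array. With the filter on dim probes 2 of 11 passed, all higher (median 0.23). Without that filter, 4 of the 21 passed as higher and 1 as lower, with a median difference of 0.34. With the slide block 4 passed, 2 of them higher, and with no scaling 3 passed, 0 of them higher. Pax5, the transcription factor of B cell identity, gave −4.89, −5.21, and −5.17 in WT and −4.16, −4.02, and −4.79 in Selenbp1-KO, without overlap (difference 0.76, standard error 0.23, adjusted p = 0.279 from limma). The Pax5 probe was well above background on all 3 Selenbp1-KO arrays but only on 2 of the 3 WT arrays, so no fold is given. Jchain, which joins the chains of secreted IgA and IgM in plasma cells, gave −3.79, −3.61, and −3.97 in WT and −3.14, −3.39, and −3.58 in Selenbp1-KO, also without overlap (difference 0.42). Blnk, an adaptor of the B cell receptor and the brightest of the list, gave 3.12, 2.98, and 3.21 in WT and 2.99, 3.07, and 2.95 in Selenbp1-KO, with overlap (difference −0.097, adjusted p = 0.693 from limma). Jchain still passed the unadjusted threshold with the slide block and Pax5 did not, and with no scaling neither did.

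In the pan-leukocyte list, 1 of 28 genes was well above background on no array. With the filter on dim probes 7 of 24 passed, all higher (median 0.13). Without that filter, 5 of the 28 passed as higher and none as lower, with a median difference of 0.21. With the slide block 0 of the 28 passed (median 0.087), and with no scaling 1 passed, as lower (median −0.057). Vav1, a signaling protein of blood cells, gave −2.49, −2.61, and −2.28 in WT and −2.08, −2.03, and −2.07 in Selenbp1-KO (difference 0.40, standard error 0.12, adjusted p = 0.279 from limma). Selplg, the selectin ligand of rolling leukocytes, gave −2.96, −2.85, and −2.76 in WT and −2.49, −2.60, and −2.53 in Selenbp1-KO (difference 0.32). Gmfg, an actin regulator of leukocytes, gave 0.74, 0.70, and 0.92 in WT and 1.06, 1.12, and 1.07 in Selenbp1-KO (difference 0.29). These 3 genes, named for the smallest p, did not overlap between the groups. With the slide block their differences were 0.22, 0.22, and 0.16, and with no scaling none of the 3 passed the unadjusted threshold. In the whole list the groups did not overlap in 7 of the 28 genes, beside 14.1% of all genes, and 6 of the 28 had differences below 0. Arhgdib, the brightest of the list, overlapped as Ptprc did (difference −0.12, adjusted p = 0.803 from limma). With no scaling its difference was −0.39 and passed as lower.

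In the cytotoxic list, 1 of 20 genes passed, Klrk1, a receptor of natural killer cells, which was well above background on no array, and the median difference was 0.19. Of the 20 genes, 13 were well above background on no array. With the filter on dim probes 0 of 4 passed, and the median was 0.0018. The brightest genes stood high in WT replicate 4. Ccl5, a chemokine of activated T cells, gave −1.58, −1.70, and −0.19 in WT and −1.20, −0.83, and −1.21 in Selenbp1-KO. Gzma, a granule protease, gave −3.57, −3.16, and −1.59 in WT and −2.37, −2.65, and −2.69 in Selenbp1-KO. In both, as in Nkg7, WT replicate 4 was the highest array and the other 2 WT arrays were the lowest. With the slide block, which sets the knockout against WT replicate 4 alone, both passed the unadjusted threshold as lower, by −0.89 in Ccl5 and −0.98 in Gzma. The linear signals of the list, summed relative to the 75th percentile, were 0.74, 0.79, and 1.69 in WT and 1.08, 1.14, and 0.96 in Selenbp1-KO.

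**Figure D5:**
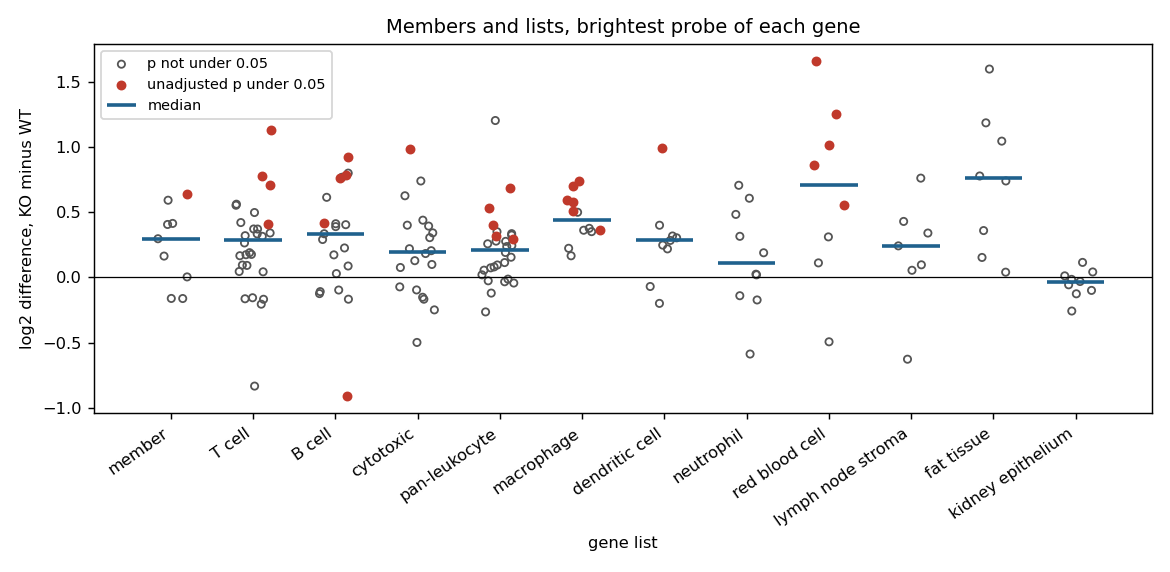
Log2 difference, KO minus WT (vertical axis), of the brightest probe of each gene in the members and in each list of cell type markers (horizontal axis), with filled points for an unadjusted p under 0.05 and lines for medians. In the member column only Cd3e is filled, at 0.64, and the median is 0.30.

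Markers of other cells were counted in the same way, at an unadjusted p under 0.05. Of all genes tested, 6.87% were higher in Selenbp1-KO and 1.13% lower. With no scaling, 9.01% of all probes passed, and 12.8% of those calls were higher. The lowest adjusted p in these lists was 0.279 (limma). Of the macrophage list, 6 of 12 genes passed as higher and none as lower, among them Lyz2, the lysozyme of myeloid cells, by 0.74. Csf1r, the brightest of this list, overlapped between the groups and did not pass (difference 0.17, adjusted p = 0.477 from limma). The summed level of the list was between 16.5 and 20.1 in WT and between 22.8 and 24.8 in Selenbp1-KO, without overlap. With the slide block 3 of the 12 passed, all higher, and with no scaling 0 passed, when the difference of Lyz2 was 0.47. Of the red blood cell list, 5 of 8 rose, among them Hbb-b1, a globin chain, by 1.26, and the summed level was between 295 and 390 in WT and between 426 and 650 in Selenbp1-KO. Of the 8, 4 passed with the slide block and 3 with no scaling, all higher. Fcgr1 of the first list and 3 genes of the second, Ahsp and Epb42 among them, were well above background on no array. Of the dendritic cell list, 1 of 9 rose, Clec10a, a lectin of dendritic cells and macrophages, from a mean of −2.74 in WT to −1.75 in Selenbp1-KO, and the summed levels overlapped (41.7 to 60.7 in WT and 41.9 to 57.6 in Selenbp1-KO). Of the 9, 2 passed with the slide block and with no scaling 3, 1 of them higher each time. The summed level of the 9 members overlapped, with 4.20 to 4.76 in WT and 4.10 to 4.66 in Selenbp1-KO, and so did those of the T cell list, 5.52 to 7.38 and 6.82 to 7.92, and the B cell list, 12.7 to 14.5 and 12.3 to 17.5. No gene passed the test in the neutrophil list of 10 genes (27.9 to 40.4 in WT and 28.0 to 36.0 in Selenbp1-KO), in the lymph node stroma list of 7 genes (1.55 to 1.70 and 1.56 to 2.38), or in the fat tissue list of 8 genes (280 to 319 and 309 to 385), although all 8 fat genes had differences above 0, with a median of 0.76. The kidney epithelium list likewise had none of 9, with 462 to 489 in WT and 471 to 495 in Selenbp1-KO. With the slide block 1 gene passed, as higher, in each of the neutrophil, lymph node stroma, and fat tissue lists, and with no scaling 2 kidney epithelium genes and 1 neutrophil gene passed, all lower. The summed levels are linear, so the brightest genes of a list weigh most in them. Over the 6 arrays, Pck1 of the fat tissue list had a mean log2 signal of 8.06, with a difference of 0.040. Siglech of the dendritic cell list was at 5.62, Csf3r of the neutrophil list at 4.87, and Cd247 of the T cell list at 2.26. Among the members, Ptprc probe 1 and Cd4 probe 1 were the brightest and so weigh most in their summed level. A summed level thus says little about the dimmer genes of its list. The part of the cells of these lists in the differences above was not tested.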

How the data were processed

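Kidney RNA of 3 WT and 3 Selenbp1-KO mice was measured on 6 one-color Agilent arrays, and p-values measure the spread between these animals. The authors deposited the output of Feature Extraction for each array (version 10.7.1.1 in the file headers and 9.5.1.1 in the submitters' processing notes), whose intensities are linear, background-subtracted, and not scaled between arrays, with a surrogate value for a spot not above background. They also deposited a detection p-value for each spot and a table of quantile normalized intensities, with 1 value per probe, used here as an alternative.

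Of 62976 spots on an array, controls and spots marked as outliers were left out, and spots of a probe were averaged. The log2 intensity minus the log2 75th percentile of each array was used. A probe was tested if its detection p was below 0.05 on 1 array or more, whether above or below background, which kept 56097 and left out 508. The genotypes were compared by lmFit and eBayes of limma 3.58.1 in R 4.3.3, two-sided and without covariates. Following the methods, probes were called at 0.05 without adjustment, and Benjamini–Hochberg values over all tested probes stand beside the calls. The brightest probe, by its mean signal, stood for a gene. Names came from a RefSeq table (GRCm38.p6), which named 32994 probes, and coordinates are those of the files. The number of arrays limits the precision.

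The members and the marker lists were chosen with earlier results of these data known. Named genes are the members, Selenbp1, the 2 brightest genes of each list, the 3 with the smallest p under 0.05 among those well above background in 1 genotype, and the 5 nearest to the mean profile of the members; some of these are given in counts only, and some are not reported here. Klrk1 and the markers that were well above background on no array were named after their values were seen. Alternatives were normexp background correction (offset 50), quantile normalization, the authors' quantile normalized table, median scaling, filters on dim probes, outliers kept, trend and robust moderation in limma (with statmod 1.5.0), the t-test of the methods (here the methods' t-test), slide side or replicate number as a block, each array left out, the mean of the probes of a gene, and an absolute difference of at least 0.5. No scaling between arrays was chosen after seeing the data. The fit was tested on simulated arrays in which 200 probes had known changes.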

Additional observations from a re-analysis of the deposited data

How the results depend on the processing

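Probes with an unadjusted p under 0.05 numbered 4479 in all and 2 among the members, and 15 genes of the 4 companion lists passed. All probes passing numbered 14616 with median scaling, 2841 among probes well above background, 7536 with the trend and robust options of limma, and 2799 with an absolute difference of at least 0.5. Of the calls, 81.1% were higher in Selenbp1-KO, beside 53.8% with quantile normalization and 12.8% with no scaling. Member probes passing numbered 1 with quantile normalization, with the authors' values, among probes well above background, and with a difference of at least 0.5, then 6 with median scaling, and 0 with the methods' t-test and when the slide side was a block. Companion genes passing numbered 9 in each of those last 2 settings, and 10 with a difference of at least 0.5 and with no scaling. Leaving out 1 array gave 2024 to 17585 probes, 0 to 7 member probes, and 7 to 34 companion genes, with the highest counts each time without WT replicate 4, and a member median of −0.035 to 0.50. That median was −0.27 when the slide side was a block, 0.026 with no scaling, and 0.0039 among probes well above background. Replicate numbers 2 and 3 occur in both genotypes, and the deviations of the samples that share them correlated at 0.16 and 0.21 over 26814 probes. With this replicate block, in the 4 arrays that share a number, 18430 probes, 9 member probes, and 31 companion genes passed, and the member median was 0.64. The sign of Cd4 turned to −0.0095 with normexp, −0.013 with median scaling, −0.27 with no scaling, −0.0089 with the replicate block, and −0.065 to −0.019 with WT replicate 2, WT replicate 4, or Selenbp1-KO replicate 2 (−0.032) left out. Cd8a turned to −0.059 with quantile normalization and the authors' values, −0.11 with no scaling, −0.50 with the slide side, and −0.24 or −0.012 with WT replicate 2 or Selenbp1-KO replicate 3 left out. Ms4a1 turned to −1.03 with the slide side, −0.022 as the mean of its probes, and −0.45 without WT replicate 2. Nkg7 turned to −0.50 with the slide side, Cd79b to 0.019 with the replicate block, Ptprc to 0.24 as the mean of its probes, and Cd3g to −0.036 without Selenbp1-KO replicate 2. With 1 array left out, Cd3g ran from −0.036 to 0.67, Cd4 from −0.065 to 0.096, Ms4a1 from −0.45 to 1.13, and Cd8a from −0.24 to 0.50. Some members gained the threshold, namely Cd4 as the mean of its probes (0.38), Cd79a with normexp (0.33) and without WT replicate 2 (1.04), Ptprc with no scaling (−0.43), Nkg7 without WT replicate 4 (0.87), Cd3g without Selenbp1-KO replicate 1 (0.67), and Cd3g, Cd8a, and Nkg7 with the replicate block (0.66, 0.51, and 0.67). Cd3e was above 0 under all 20 alternatives and passed the threshold in 12. The causes were not tested.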
